A study of Mus musculus with 30 samples.

Results

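The genes described here are 102 mouse zinc finger genes, out of the 55401 genes of the count tables. They are the protein-coding genes whose symbol is Zfp followed by 3 digits, the first of them 7 or 9, together with Zik1. The symbol decided membership for all but Zik1, and the set was put together after Zik1 and Zfp790 had been selected on their measured exon counts in the SYAT time course. In that experiment the values of these 2 genes are therefore given as a description, and the tests cover the other members. The samples were mouse embryonic stem cells (mESC) of the CGR8 line and of SYAT, a CGR8-derived line. SYAT derives from a single homozygous clone in which both copies of Srcap, the catalytic subunit of a complex that deposits the histone variant H2A.Z, are fused to the fluorescent protein YPet and an auxin-inducible degron (AID). That clone received the plant receptor OsTir1, driven by the EF1a promoter, by lentivirus, and the transduced cells were drug-selected and sorted for loss of YPet after IAA. The auxin indole-3-acetic acid (IAA, 500 µM) induces degradation of the SRCAP protein, and SYAT control cells were kept with auxinole, which blocks the receptor. All cells had been moved to serum and LIF before the experiments, and nuclear RNA was sequenced in 2 libraries per condition, 30 in all.

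SYAT was collected as control and after 2, 4, 6 and 8 h of IAA. CGR8, which has neither the degron nor OsTir1, was collected as control and after 4 h of IAA. SYAT cells sorted by DNA content and a mitotic degradation reporter as early G1 (EG1) or late G1 (LG1) were collected as control and after 1 h of IAA. In a further pair of SYAT-derived lines, each of them 1 clone, doxycycline for 24 h induced an mCherry fusion of wild-type SRCAP (wtSRCAP) or of a catalytically dead form (cdSRCAP) in the control and in the IAA cells alike. These were sorted for mCherry, with and without 4 h of IAA. SRCAP is removed as a protein, so the Srcap transcript does not check the depletion.

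KRAB zinc finger proteins bind DNA through a row of C2H2 zinc fingers at the C-terminal end. Their N-terminal KRAB domain recruits TRIM28 (KAP1), which brings the histone methyltransferase SETDB1 and heterochromatin proteins to the bound site. In mouse embryonic stem cells many of these proteins silence endogenous retroviruses and protect imprints, and the genes themselves lie in clusters of young, similar copies.

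The annotated transcripts were translated and searched with a single sequence pattern for the KRAB A box, which matched in 72 of the 102 genes. The other 30 had no match, which does not show that they lack the box. Members without a KRAB A box are, throughout, those with no match. The label of KRAB-type genes was thus borne out for most members and left undecided for the rest. The median protein had 524 residues and 11 C2H2 fingers, with a range of 0 to 23 fingers. When members within 500 kb of each other were joined, 56 of the 102 fell into 8 clusters of 4 or more, and 46 of these 56 have the KRAB A box. The largest cluster holds 16 members on chromosome 4 (mm10, chr4:145510759-147848366), and the next holds 12 members on chromosome 17 (chr17:21567008-22867134). Zik1 (chr7:10487229-10495394, minus strand) encodes 463 residues with 9 fingers and a KRAB A box. Zfp790 (chr7:29816114-29831005, plus strand) encodes 779 residues with 12 fingers and a KRAB A box. Neither shares a stretch of 75 bases with another gene's transcripts. In 36 members more than 10% of the 75-base stretches occur in another gene, and in 18 members more than 50%, so the counts of these members are uncertain.

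The 250 bases upstream of the annotated start (RefSeq, GRCm38.p6) were at hand for 86 of the 102 members. They are shown for Zik1 and Zfp790, for Zfp994 and Zfp949 as members with low p-values at several times of the time course, and for Zfp985 as a member of the chromosome 4 cluster. Capitals mark matches, on either strand, to the GC box (GGGCGG), the CCAAT box (CCAAT), an ETS-type site (CCGGAAG), the E-box (CACGTG) or a TATA element (TATAAA), and a run of capitals can join motifs that overlap.
Zik1 (chr7:10495382-10495631, minus strand): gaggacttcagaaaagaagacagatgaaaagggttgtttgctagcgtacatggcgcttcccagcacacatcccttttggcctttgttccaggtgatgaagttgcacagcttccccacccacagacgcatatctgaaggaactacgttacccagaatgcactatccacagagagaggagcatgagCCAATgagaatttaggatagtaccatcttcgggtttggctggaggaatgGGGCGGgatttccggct
Zfp790 (chr7:29815822-29816071, plus strand): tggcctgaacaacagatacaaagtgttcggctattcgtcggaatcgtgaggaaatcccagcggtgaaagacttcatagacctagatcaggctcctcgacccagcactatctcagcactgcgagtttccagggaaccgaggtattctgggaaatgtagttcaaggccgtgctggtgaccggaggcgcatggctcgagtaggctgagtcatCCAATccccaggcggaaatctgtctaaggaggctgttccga
Zfp994 (chr17:22225615-22225864, minus strand): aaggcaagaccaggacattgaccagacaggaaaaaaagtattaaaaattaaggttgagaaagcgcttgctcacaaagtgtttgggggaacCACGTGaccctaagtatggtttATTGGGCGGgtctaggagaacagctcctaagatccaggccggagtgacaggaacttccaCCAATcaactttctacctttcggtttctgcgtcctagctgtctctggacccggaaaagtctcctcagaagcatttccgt
Zfp949 (chr9:88547770-88548019, plus strand): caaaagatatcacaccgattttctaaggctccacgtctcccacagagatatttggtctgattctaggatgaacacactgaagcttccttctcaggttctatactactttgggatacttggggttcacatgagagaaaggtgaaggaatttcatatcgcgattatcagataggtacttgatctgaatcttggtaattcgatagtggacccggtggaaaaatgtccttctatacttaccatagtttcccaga
Zfp985 (chr4:147553027-147553276, plus strand): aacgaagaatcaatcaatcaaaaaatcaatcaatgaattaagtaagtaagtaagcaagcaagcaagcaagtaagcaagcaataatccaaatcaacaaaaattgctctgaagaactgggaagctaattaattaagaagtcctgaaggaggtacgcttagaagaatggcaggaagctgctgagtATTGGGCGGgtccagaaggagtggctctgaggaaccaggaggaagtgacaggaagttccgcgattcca

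A CCAAT box was present in 57 of the 86 member promoters (66.3%), against 34.5% of 27025 gene promoters of the same length. The ETS-type site occurred in 13 members (15.1% against 7.05%), the E-box in 11 (12.8% against 6.05%), the GC box in 31 (36% against 32.9%) and the TATA element in 2 (2.33% against 13%). The Zfp949 window held none of these letters. In the Zfp994 and Zfp985 windows a reversed CCAAT box runs into a GC box as ATTGGGCGG. This joined form was looked for after the sequences had been seen. It occurred in 8 of the 86 members (9.3%) and in 69 of all 27025 promoters (0.255%), with 6 of the 10 chromosome 4 cluster members that had a window and 2 of the 12 on chromosome 17. Clustered copies share sequence, so these matches are not independent of each other.

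Exon counts summed to between 12236493 and 60214521 per library, and all 10 ES cell markers were detected in every library. A few libraries stood apart in the zinc finger genes. The median log2 level of the members, relative to the mean of the libraries in the same experiment, was -0.76 in IAA 6 h replicate 2 of the time course, and mitochondrial genes took 0.529% of the counts in that library, against 1.80 to 2.44% in the 9 others. Its 100 most abundant genes took 30% of counts, against 21 to 26.6%. In wtSRCAP IAA replicate 1 the member median was -0.78, with a mitochondrial share of 0.215% against 0.606 to 0.808% in the 7 others. The CGR8 control replicate 1 had a member median of -0.41 and a mitochondrial share of 0.575% against 1.06 to 2.01%. Above the others lay SYAT control replicate 2 (+0.50), wtSRCAP control replicate 2 (+0.46), CGR8 IAA replicate 2 (+0.39) and cdSRCAP control replicate 2 (+0.37). The members with a KRAB A box carried most of these departures, as in IAA 6 h replicate 2, where their median was -0.83 and that of the members without the box -0.01. The part of these libraries in the results was not tested. Some, not all, of the main counts and medians that rest on them are given with and without them.

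**Figure D1:**
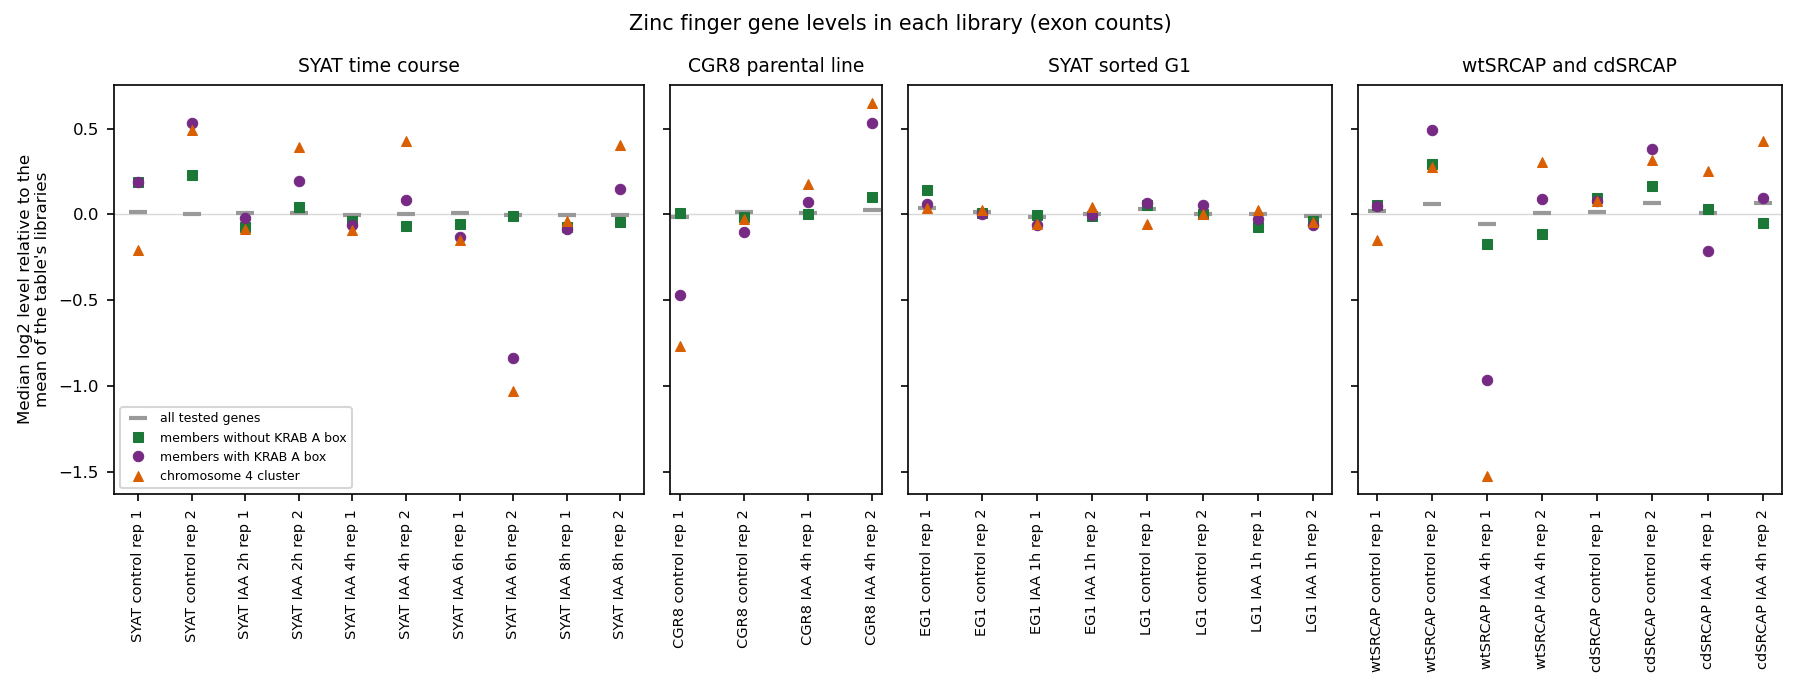
Median log2 level of 3 groups of zinc finger genes and of all tested genes in each library, relative to the mean over the libraries of the same experiment (y axis, log2 of normalised exon counts). Each symbol is the median over the genes of one group in one library. The members with a KRAB A box and the chromosome 4 cluster are lowest in SYAT IAA 6 h replicate 2, CGR8 control replicate 1 and wtSRCAP IAA replicate 1, whereas all tested genes stay near 0.

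Levels of the members in SYAT control cells spanned from 0 to 1119 normalised exon counts per kb of exon, with a median of 53.3. The highest levels per kb were those of Zfp990 (1119), Zfp740 (549), Zfp985 (535), Zfp706 (463) and Zfp710 (434). Zfp990 and Zfp985 belong to the chromosome 4 cluster, whose median level was 219.8 per kb. Zfp740, Zfp706 and Zfp710 had no match to the KRAB A box pattern. The 4 members of one of the chromosome 2 clusters had a median of 0 per kb. Between 85.07 and 100% of their 75-base stretches occur in another gene, so their level is uncertain. Over the time course 5 members had no count in any library. Zfp708, which is known to bind retroelements of the RMER19B family, had 8 exon counts over the 10 libraries and was not tested. Of its 75-base stretches 94.31% occur in another gene, so its level is uncertain as well.

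The time course asked how transcripts respond as SRCAP is lost. In the description of the genes that prompted the selection, Zik1 had 461 and 438 normalised exon counts in the control, 270 and 235 at 2 h, 207 and 181 at 4 h, 146 and 114 at 6 h, and 194 and 159.5 at 8 h. All 8 IAA libraries lay below both control libraries. Taken time by time, 21, 24.1, 22.2 and 24% of all genes were likewise lower without overlap. The log2 fold changes of Zik1 were -0.84, -1.21, -1.79 and -1.35 at 2, 4, 6 and 8 h. Zfp790 had 250 and 241 normalised exon counts in the control, 84.7 and 106 at 2 h, 148 and 138 at 4 h, 139.9 and 112 at 6 h, and 128 and 125 at 8 h. Here too the groups did not overlap, and the lowest level came at 2 h. For Zfp790 the log2 fold change was -1.36 at first, then -0.78, -0.97 and -0.96. In bulk RNA, fewer cells that express a gene and less RNA per cell cannot be told apart.

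Of the other members, 89 had enough counts to be tested, and no member passed the threshold of an adjusted p under 0.05 (edgeR, Benjamini-Hochberg) with an absolute log2 fold change over 0.5 at any of the 4 times. Over all 19205 genes tested the share past that threshold was 0% at 2 h, 0% at 4 h, 0.0677% at 6 h and 0.00521% at 8 h, so calls were rare for any gene. DESeq2 called 0, 3, 19 and 9 members at the same thresholds, all lower, and 0.0223, 0.343, 1.59 and 1.06% of all 35880 genes it tested. A replicate block, for which the labels state no pairing, gave calls at 6 and 8 h and in CGR8, listed under the processing. At an unadjusted p under 0.05, 19 of the 89 members were lower and 1 was higher at 2 h, where 2.55% of all genes were lower and 1.37% higher. The 4 h libraries had 23 members lower and 0 higher (all genes, 6% and 3.09%). By 6 h 42 were lower and 1 was higher (8.21% and 7.93%), and by 8 h 21 were lower and 0 higher (8.44% and 5.13%). As shares of the members, the lower ones made up 21.3, 25.8, 47.2 and 23.6%. The median log2 fold change of the members was -0.25, -0.27, -0.72 and -0.27 at the 4 times. The same control libraries entered all 4 comparisons.

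The counts moved with single libraries. No share of all genes stands beside the unadjusted counts below, so they show this dependence only. They do not set the members apart from other genes. Without control replicate 2, the members lower at an unadjusted p under 0.05 numbered 9, 12, 24 and 16 at 2, 4, 6 and 8 h, and without control replicate 1 they numbered 14, 15, 45 and 23. Leaving out IAA replicate 1 or 2 gave 9 and 12 at 2 h, 12 and 13 at 4 h, and 15 and 21 at 8 h. At 6 h, the count was 28 without IAA replicate 2 and 59 without IAA replicate 1, and the median log2 fold change was -0.40 and -1.15. In the latter fit, which leaves only the library that stood apart and assumes that it varies like the other groups, 46 members passed the adjusted threshold, as did 3163 of 20497 genes (15.4%).

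**Figure D2:**
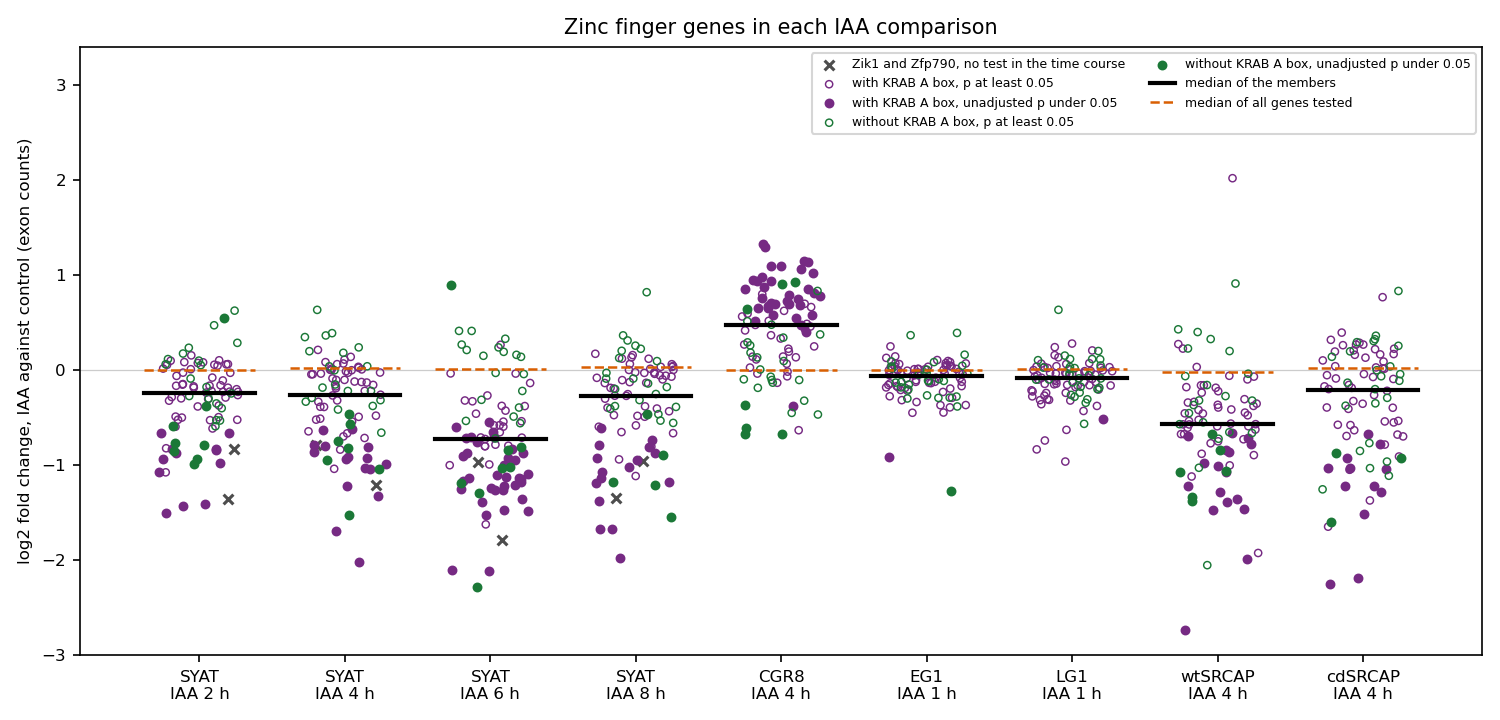
log2 fold change of each tested member in each IAA comparison (y axis, exon counts), as open symbols where the unadjusted edgeR p was at least 0.05 and filled symbols where it was lower. Thick lines are the medians of the members and dashed lines those of all genes tested. In the time course crosses mark Zik1 and Zfp790, which were not tested there. The member medians lie between -0.72 and -0.25 in the time course, at 0.48 in CGR8 and at -0.07 and -0.09 in EG1 and LG1.

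The 8 members with the smallest p at 6 h were all lower after IAA, with adjusted p between 0.0533 and 0.0974 (edgeR), and each had its 2 IAA 6 h libraries below both control libraries, as had 22.2% of all genes. They stayed lower when any 1 library was left out. Because they were picked for a small p in these same libraries, neither this nor the lack of overlap is separate support. Zfp759, in the chromosome 13 cluster, has 19 fingers and no match to the KRAB A box pattern. It had 126 and 176 normalised exon counts in the control, 76.9 and 75 at 2 h, 60.6 and 44.5 at 4 h, 35.6 and 26.4 at 6 h, and 61 and 42.8 at 8 h. Its log2 fold change at 6 h was -2.28 (SE 0.33).

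Zfp994, a member of the chromosome 17 cluster with 17 fingers and a KRAB A box, had 120 and 132 normalised exon counts in the control, 60.2 and 59.3 at 2 h, 31.9 and 45.4 at 4 h, 37.9 and 20.1 at 6 h, and 34 and 44.5 at 8 h. Every IAA library was below both control libraries. The log2 fold changes of Zfp994 were -1.07, -1.69, -2.11 and -1.67, with adjusted p = 0.99, 0.18, 0.0615 and 0.0874. Of its 75-base stretches 9.73% occur in another gene.

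Zfp949 on chromosome 9 shares none of its 75-base stretches, and its level hardly differed among the IAA times. It had 210 and 213.5 normalised exon counts in the control, 104 and 117 at 2 h, 117 and 105 at 4 h, 113 and 107 at 6 h, and 109.9 and 99.1 at 8 h. The log2 fold changes were -0.94 (SE 0.21), -0.93, -0.95 and -1.02. Adjusted p for Zfp949 was 0.8, 0.18, 0.085 and 0.0879.

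Zfp772, with 8 fingers and a KRAB A box, lies on chromosome 7. It had 75.5 and 61.6 normalised exon counts in the control, 29 and 22.7 at 2 h, 15.4 and 18 at 4 h, 30.8 and 16.3 at 6 h, and 16 and 18.5 at 8 h. These are few counts. The groups did not overlap at any time, where 21, 24.1, 22.2 and 24% of all genes were lower without overlap. The log2 fold changes of Zfp772 were -1.41, -2.02, -1.53 and -1.98. Zfp954, also on chromosome 7, had 183 and 141 normalised exon counts in the control and between 72.8 and 103 in the 8 IAA libraries, with a log2 fold change of -0.97 at 2 h.

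Zfp940, which lies next to Zfp790 on the opposite strand of chromosome 7, had 321 and 321 normalised exon counts in the control, 176 and 183 at 2 h, 193 and 148 at 4 h, 164 and 104 at 6 h, and 161 and 122 at 8 h. Its log2 fold changes were -0.84, -0.91, -1.26 and -1.18. The remaining members named for 6 h were Zfp738 (-1.26), Zfp952 (-1.29), Zfp764 (-1.14) and Zfp995 (-1.48). Zfp952 had no match to the KRAB A box pattern, and its control libraries had 162 and 165 normalised exon counts against 82.4 and 88.1 at 2 h.

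**Figure D3:**
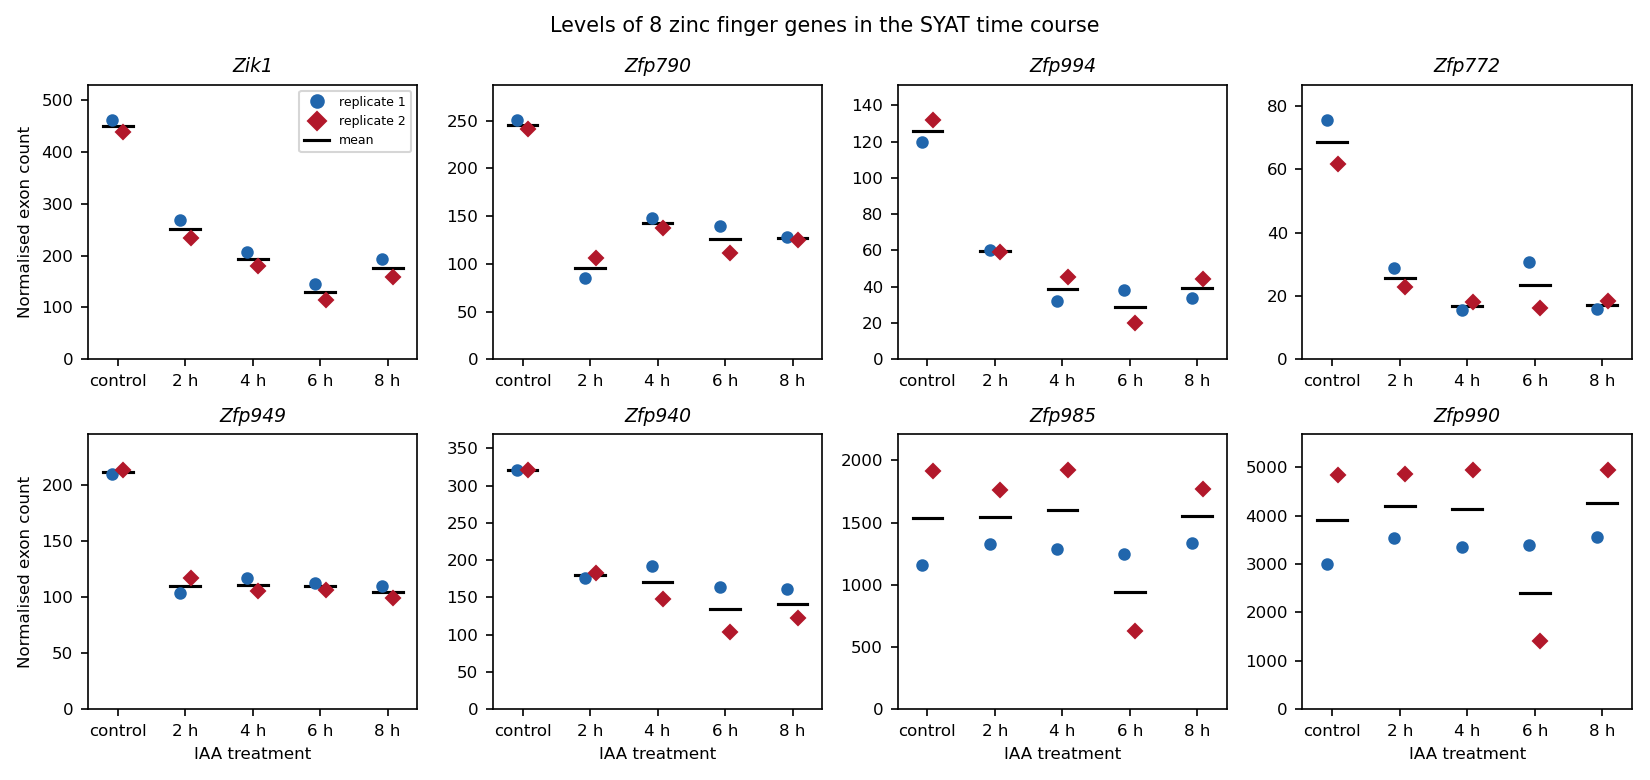
Normalised exon counts of 8 members in the SYAT time course (y axis, linear and starting at 0) by time of IAA treatment (x axis), with one symbol per library and a line at the mean of 2. Zik1, Zfp790, Zfp994, Zfp772, Zfp949 and Zfp940 lie below both control libraries in all 8 IAA libraries, whereas Zfp985 and Zfp990 overlap the control except that IAA 6 h replicate 2 lies below it.

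The chromosome 4 cluster had another pattern. Its 16 members had median log2 fold changes of 0.03, 0.00 and 0.02 at 2, 4 and 8 h, and of -0.72 at 6 h. Zfp985 had 1159 and 1915 normalised exon counts in the control, 1330 and 1763 at 2 h, 1287 and 1921 at 4 h, 1249 and 629 at 6 h, and 1337 and 1766 at 8 h. Zfp990 had 2991 and 4839 in the control, 3541 and 4864 at 2 h, 3355 and 4938 at 4 h, 3387 and 1398 at 6 h, and 3566 and 4942 at 8 h. In both genes IAA 6 h replicate 2 was the one IAA library below both control libraries. Without that library the median of the cluster at 6 h was -0.29, and without control replicate 2 it was 0.41, 0.37, -0.33 and 0.40 at the 4 times. In this cluster replicate 2 lay above replicate 1 in the control (library medians 0.49 and -0.21). The same held at 2 h (0.39 and -0.08), 4 h (0.43 and -0.09) and 8 h (0.41 and -0.04). Without control replicate 2 a replicate 1 control is set against both replicates, so a response cannot be told apart from this difference. The log2 fold changes of Zfp979, also in this cluster, were 0.07, 0.03, -0.87 and -0.13.

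At 6 h 35 of the 62 tested members with a KRAB A box were lower at an unadjusted p under 0.05, with a median log2 fold change of -0.82, against 7 of the 27 without the box, with a median of -0.22. At 2 h the medians were -0.23 and -0.27, and at 8 h -0.29 and -0.20. Without control replicate 2 the 6 h medians were closer to each other, at -0.575 and -0.25. Without IAA 6 h replicate 2 the 6 h counts were 20 of 62 and 8 of 27, where 7.96% of all genes were lower, and the medians were -0.53 and -0.14. Zfp932, known for binding endogenous retroviruses, had a log2 fold change of -0.87 at 6 h (adjusted p = 0.102) and of -0.23 at 2 h, and 26.4% of its 75-base stretches occur in another gene. Members outside the clusters had 21 of 38 lower at 6 h, with a median of -0.71, and the chromosome 17 cluster had 7 of 12, with a median of -0.87. Without IAA 6 h replicate 2 these were 16 of 38 with a median of -0.41 and 4 of 12 with a median of -0.51.

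Lower zinc finger genes were also found beyond the members. Of 270 other tested genes with a Zfp symbol, 105 were lower at 6 h at an unadjusted p under 0.05, with a median log2 fold change of -0.42, and 63 were lower at 2 h, with a median of -0.25. Those 2 h values stand close to the 19 of 89 and -0.25 of the members. For the other Zfp genes the 6 h median was -0.35 without control replicate 2. Without IAA 6 h replicate 2 the 6 h values were 84 of 275 and -0.32. Among 27 co-repressors and partners of KRAB proteins, 0 were lower and 0 higher at 2 h and at 4 h. At 6 h Atf7ip (-0.32), a partner of SETDB1, and Cbx5 (-0.33), a heterochromatin protein, were lower and Dnmt3a (0.55) and Ehmt2 (0.60), methyltransferases of DNA and histone H3, were higher, each at an unadjusted p under 0.05. The share of 7.41% in each direction is close to the 8.21% and 7.93% of all genes. Which of the 27 passed that cut depended on single libraries. Their median log2 fold change was 0.06 without IAA 6 h replicate 2 and 0.19 without control replicate 2. Without IAA 6 h replicate 2 the first 3 named had log2 fold changes of -0.31, -0.32 and 0.35. Trim28 had a log2 fold change of 0.60 (SE 0.28, adjusted p = 0.33, edgeR) and Setdb1 of -0.07. Of 8 other KRAB zinc finger genes with known repeat or imprint targets, Zfp445 (-0.39) and Zfp69 (-0.75) were lower at 6 h at an unadjusted p under 0.05. Without IAA 6 h replicate 2 these were -0.37 and -0.93, and that of Zfp819 was 0.47. Which of the 8 passed that cut also depended on single libraries. Their median was -0.23 without IAA 6 h replicate 2 and 0.004 without control replicate 2.

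The intron columns stand beside these values but do not repeat the test. In the time course 629 of 1213 single-exon genes had intron counts (51.85%), so these columns hold exonic reads as well. Of 77 members tested in them, 13, 16, 28 and 16 were lower at an unadjusted p under 0.05 at the 4 times, against 3.29, 5.87, 7.98 and 7.85% of all genes. Without any 1 of the libraries compared these counts were 5 to 7, 7 to 11, 16 to 41 and 10 to 13. Zfp790 had intron log2 fold changes of -1.21, -0.78, -0.95 and -0.98. Zik1 was among 22 members with 0 intron counts in all 10 libraries, so it was not fitted.

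CGR8 cells served as the control for IAA without the degron. No member passed the adjusted threshold among 91 tested (0.00988% of 20250 genes did). At an unadjusted p under 0.05, 5 were lower and 37 higher, against 4.12% and 5.04% of all genes. The higher members are 40.7% of those tested, and the median log2 fold change was 0.48. Members with a KRAB A box had a median of 0.61, those without it of 0.01, and 12 of the 16 members on chromosome 4 were higher, with a median of 0.79. Without control replicate 1 these medians were 0.43, 0.01 and 0.48, with 10 of the 16 higher, and without IAA replicate 2 they were 0.35, 0.02 and 0.59, with 7 of the 16 higher. The smallest p belonged to Zfp985 (log2 fold change 0.95), Zfp981 (0.94) and Zfp953 (0.85), each with adjusted p = 0.54 by edgeR. Zfp985 had 2213 and 2944 normalised exon counts in the control and 4011 and 5971 after IAA, and Zfp981 had 2658 and 4249 against 5971 and 7293. In both genes the 2 IAA libraries lay above both control libraries, as in 21.6% of all genes, and control replicate 1 was the lowest. Without IAA replicate 2 the count of higher members was 12 and the median 0.27, and without control replicate 1 they were 35 and 0.35. All genes higher in those 2 fits were 1.12% and 6.2%. Lower members numbered 1 without either library. With the adjusted threshold 42 members were called without control replicate 2, 6 without control replicate 1, 3 without IAA replicate 1 and 0 without IAA replicate 2, where 10.9, 0.734, 0.156 and 0.0138% of all genes were called. DESeq2 called 7 members with all libraries, none of them lower, and 0.397% of all genes. In the intron columns, which held no mitochondrial counts here, 5 of 81 members were higher (2.57% of all genes) and 1 was lower, with a median of 0.12, and the higher ones numbered 4 without control replicate 1 and 0 without IAA replicate 2.

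Zik1 in CGR8 had 813 and 980 normalised exon counts in the control and 991 and 1266 after IAA, a log2 fold change of 0.33 (SE 0.19, adjusted p = 0.62, edgeR). Zfp790 had 636 and 649 against 586.5 and 665, a log2 fold change of -0.04 (SE 0.18). None of the members named for low p at 2 to 8 h in SYAT was lower at an unadjusted p under 0.05 in CGR8. Zfp994 was higher there (104 and 147 normalised exon counts against 199 and 336, log2 fold change 1.09), as were Zfp772 (0.71), Zfp759 (0.91) and Zfp738 (0.58), and Zfp949 differed by 0.07. SYAT and CGR8 were counted in separate tables with separate controls, so the difference between the lines was not tested.

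**Figure D4:**
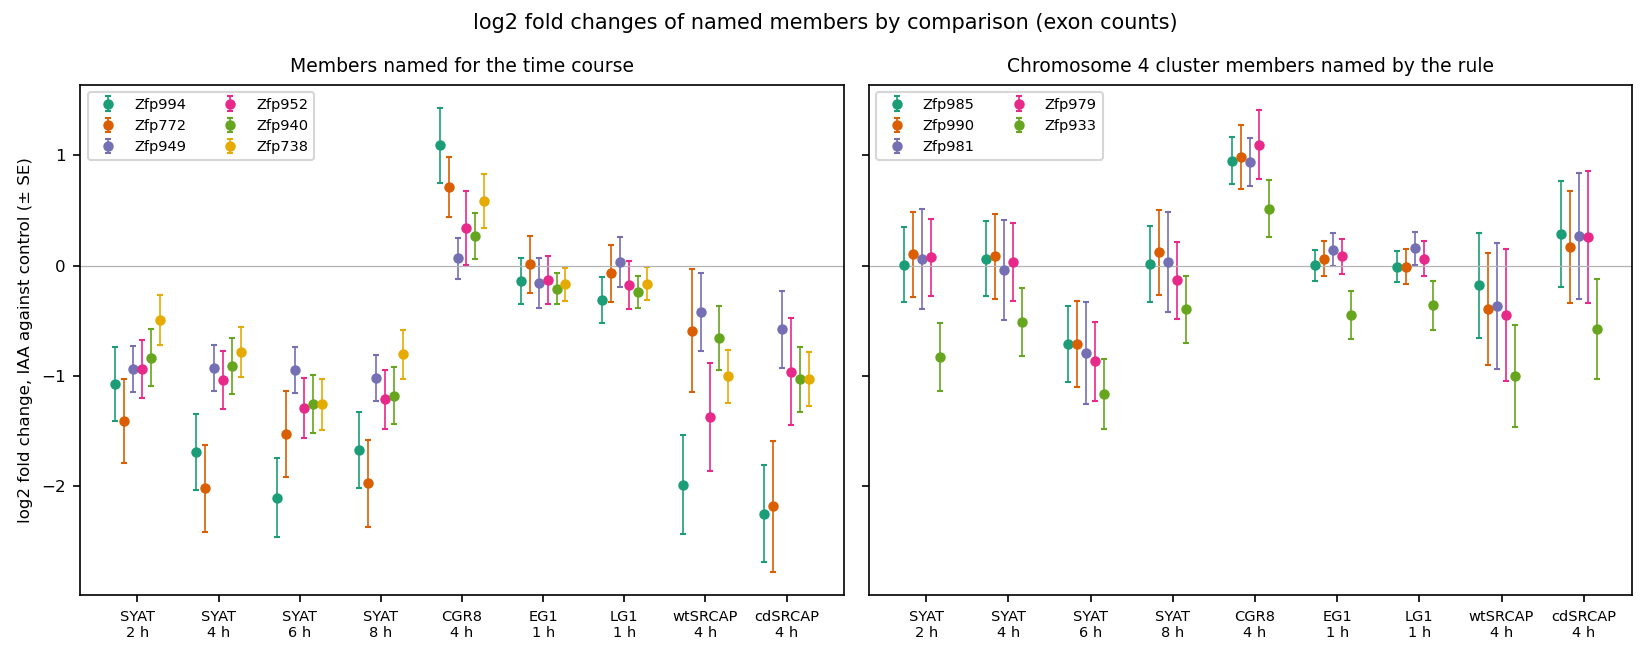
log2 fold change with its SE (edgeR, exon counts) of 6 members named for the time course (left) and of 5 members of the chromosome 4 cluster (right) in each IAA comparison. The left group lies below 0 at all 4 times in SYAT and in both rescue lines and at or above 0 in CGR8, while 4 of the 5 cluster members lie near 0 at 2, 4 and 8 h, below 0 at 6 h and above 0 in CGR8.

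Sorted G1 cells gave the response to 1 h of IAA, with calls at an unadjusted p under 0.05 and an absolute log2 fold change over 0.25. In EG1 2 of 92 tested members were called (2.17%), both lower, against 1.22% of 21020 genes. Zfp972, whose annotated protein has 0 complete fingers, fell from 31.6 and 29.7 normalised exon counts to 14 and 11.3 (log2 fold change -1.27). Zfp712 fell from 36.4 and 27 to 18.2 and 15.4 (-0.91). Both have few counts, and 43.4% of the 75-base stretches of Zfp972 occur in another gene. In LG1 1 member was called (1.09%), against 1.02% of all genes. Zfp959 fell there from 255 and 274 normalised exon counts to 188.5 and 183 (-0.51). The adjusted p of Zfp972, Zfp712 and Zfp959 was 1 (edgeR). Without 1 library the number called ran from 0 to 4 in EG1 and from 0 to 5 in LG1. In EG1 it was 0 without control replicate 1, 1 without IAA replicate 1 and 4 without IAA replicate 2. In LG1 it was 0 without control replicate 2 or IAA replicate 2 and 5 without IAA replicate 1.

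The member medians were -0.07 in EG1 and -0.09 in LG1. Next in order of p were Zfp934 in EG1 (-0.39) and Zfp748 (-0.43) and Zfp770 (-0.31) in LG1, with p over the threshold. Zik1 had 290 and 415 normalised exon counts in the EG1 control and 319 and 385 after IAA, and 342 and 447.5 against 339.9 and 428 in LG1, so its groups overlapped in both. Its log2 fold changes were 0.00 (SE 0.23) and -0.04 (SE 0.23). Zfp790 had 245 and 231 against 208 and 212 in EG1 (-0.18, SE 0.15) and 226 and 212 against 167 and 184 in LG1 (-0.32, SE 0.16). A test of the difference between the responses in EG1 and LG1 gave 0 members past the adjusted threshold (0% of all genes). At an unadjusted p under 0.05 Zfp712 (-1.12) and Zfp972 (-1.30) had a lower response in EG1, with adjusted p = 1 (edgeR). The third in order was Zfp951, with a difference of 1.21 (SE 0.66).

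The intron columns of the sorted cells differ in kind. Those of EG1 hold mitochondrial counts and 22775471 to 32872563 counts per library, and those of LG1 hold no mitochondrial counts and 4520810 to 7724200, so the 2 phases were not compared in them. In EG1 Zfp972 was called again (-0.52), 1 of 87 members, against 2.28% of all genes. In LG1 5 of the 87 (5.75%) were called, all lower, against 3.94% of all genes, and the number was 3 without control replicate 1 and 9 without IAA replicate 2. These were Zfp748 (-1.10), Zfp947 (-0.997), Zfp933 (-0.68), Zfp958 (-0.49) and Zfp787 (-0.41). Zfp748 had 166 and 183 normalised intron counts in the LG1 control and 70.9 and 92.6 after IAA, and Zfp947 had 101 and 101 against 50.2 and 50.9. The groups did not overlap in any of these 5, where 13.7% of all genes were lower without overlap. The adjusted p was 1 for each of the 5 (edgeR).

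The wtSRCAP and cdSRCAP lines compared loss of SRCAP in the presence of an active or an inactive copy. No member of 90 tested passed the adjusted threshold in either line, against 0.00523% of 19111 genes in wtSRCAP and 0% in cdSRCAP, and DESeq2 called 0 in both. These fits had no replicate block. With a block, for which the labels state no pairing, members were called in both lines, as listed under the processing. In wtSRCAP 23 members were lower and 0 higher at an unadjusted p under 0.05, where 4.48% of all genes were lower and 2.93% higher. In cdSRCAP 15 were lower and 0 higher (3.99% and 1.65%). The median log2 fold changes of the members were -0.57 and -0.21. Beside the wtSRCAP values stand markers of other cell types. Of 6 fibroblast markers, 4 were detected in each wtSRCAP library, and the markers summed to 94 and 99.3 normalised exon counts in the wtSRCAP control and to 222 and 226 after IAA, and those of primitive endoderm, of which 3 to 5 of 6 were detected, to 45.2 and 50.1 against 64.5 and 71.9. In cdSRCAP the sums were 119 and 137 against 160.5 and 154 for fibroblasts and 67.8 and 125 against 125 and 113 for primitive endoderm, and their part in the result was not tested. Without wtSRCAP IAA replicate 1, the library that stood apart, 9 were lower and 1 was higher (all genes, 2.85% and 1.61%), with a median of -0.30. The count was 12 without wtSRCAP control replicate 2 and 45 without wtSRCAP IAA replicate 2, where 2.99% and 9.18% of all genes were lower. In cdSRCAP it was 8 without control replicate 2 or IAA replicate 1 and 9 without IAA replicate 2.

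The same 3 members had the smallest p in both lines, and all were lower after IAA with no overlap between the groups. Over all genes, 19.5% in wtSRCAP and 19% in cdSRCAP were lower without overlap. Zfp994 had 67.8 and 80.1 normalised exon counts in the wtSRCAP control and 12.5 and 23 after IAA (log2 fold change -1.99), and 112 and 98.9 against 26.9 and 17.3 in cdSRCAP (-2.25). Zfp709, with 18 fingers and a KRAB A box, had 201 and 161 against 64.5 and 72.6 in wtSRCAP (-1.39) and 152 and 144 against 52.9 and 50.3 in cdSRCAP (-1.52). Zfp738 had 357 and 328 against 170 and 170 (-1.01), and 295 and 361 against 162.5 and 159 (-1.03). Their adjusted p lay between 0.597 and 0.721 (edgeR).

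Zik1 had 238 and 335 normalised exon counts in the wtSRCAP control and 84.3 and 183 after IAA, a log2 fold change of -1.07 (SE 0.38). In cdSRCAP it had 179.9 and 209.9 against 132 and 110 (-0.69, SE 0.38). Zfp790 had 214 and 229.5 against 125.5 and 143 in wtSRCAP (-0.72, SE 0.29) and 188 and 275 against 108 and 91.5 in cdSRCAP (-1.22, SE 0.29). Their adjusted p was 0.644 and 0.666 in wtSRCAP and 0.953 and 0.721 in cdSRCAP (edgeR). Neither gene overlapped between control and IAA in either line, where 19.5% and 19% of all genes were lower without overlap.

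The response in cdSRCAP minus that in wtSRCAP was 0.38 (SE 0.53) for Zik1 and -0.50 (SE 0.41) for Zfp790. No member passed the adjusted threshold for this difference (0% of all genes) and 0 had an unadjusted p under 0.05, with a median of 0.26 over the members that was -0.05 without wtSRCAP IAA replicate 1. Without wtSRCAP IAA replicate 2, which leaves that library alone, 25 members had a higher response in cdSRCAP at an unadjusted p under 0.05, as had 4.83% of all genes. The smallest p belonged to Zfp772 (-1.59, SE 0.81), Zfp781 (-2.28, SE 1.43) and Zfp977 (0.76, SE 0.52), and 94.4% of the 75-base stretches of Zfp781 occur in another gene. Zfp772 had 38.1 and 55.1 normalised exon counts in the wtSRCAP control and 23.3 and 37.4 after IAA, against 27.7 and 67.6 and then 8.65 and 12.4 in cdSRCAP. With 2 libraries per group these standard errors leave differences of either sign within reach for Zik1 and Zfp790.

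Between the lines, no member passed the adjusted threshold in the control cells (0% of all genes), and 0 had an unadjusted p under 0.05. Each line is 1 clone, so construct and clone cannot be told apart here or in the difference of responses. Zfp764 (-0.72), Zfp781 (2.34) and Zfp704 (0.50) came first in order of p. After IAA no member was called (0.00523% of all genes), and 2 were lower in cdSRCAP, Zfp764 (-0.97) and Zfp772 (-1.54), and 1 was higher, Zfp995 (0.98), at an unadjusted p under 0.05, where 2.19% of all genes were lower and 2.84% higher. Zfp764 had 129 and 130 normalised exon counts in wtSRCAP and 49 and 82.4 in cdSRCAP after IAA. Without wtSRCAP IAA replicate 2, 28 members were higher in cdSRCAP, as were 8.31% of all genes.

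The chromosome 4 cluster had median log2 fold changes of -0.37 in wtSRCAP and 0.21 in cdSRCAP. Zfp990 had 2059 and 3006 normalised exon counts in the wtSRCAP control and 742 and 3098 after IAA, so the low value was in IAA replicate 1 alone. Without it the median of the cluster was 0.27. In cdSRCAP Zfp990 had 2381 and 2884 against 2777 and 3139. Introns of these lines, which held no mitochondrial counts, had 7 of 76 members lower in wtSRCAP (6.61% of all genes) and 11 in cdSRCAP (7.49%) at an unadjusted p under 0.05, or 5 to 20 and 2 to 8 when any 1 library was left out. Zfp790 had an intron log2 fold change of -0.48 in wtSRCAP and -1.20 in cdSRCAP, and Zik1 of -1.30 and -1.07.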

How the data were processed

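Nuclear RNA from 30 libraries was sequenced by the authors from directional paired-end libraries, aligned with STAR to mm10 and counted with featureCounts over GENCODE vM25 exons and introns (gene bodies minus exons). The strand and multiple-mapping settings are not given in the sources used here. The deposited values are raw counts per gene, one exon and one intron column per library in 4 tables. Symbols, positions and transcripts came from GENCODE vM21, which matched 55141 of the 55401 gene identifiers, and 2 pseudogenes of the symbol pattern were left out.

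Each table was fitted alone with edgeR 4.0.16 in R 4.3.3 (filterByExpr with a minimum count of 10, TMM, quasi-likelihood F-test, Benjamini-Hochberg over all genes tested), on exon counts and beside them intron counts. Calls needed an adjusted p under 0.05 and an absolute log2 fold change over 0.5, or, for 1 h of IAA in EG1 and LG1, an unadjusted p under 0.05 and over 0.25. Normalised counts are counts scaled by TMM library sizes. Mitochondrial genes, which have no introns, had counts in the intron columns of the time course and of EG1 only. Replicates are labelled as separate samples, and p-values measure the spread between them.

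The members and gene lists were chosen with earlier results of these data known. Named were Zik1, Zfp790, the 8 other members with the smallest p at 6 h, the 4 at each other time, the 3 in each other comparison, the 5 highest per kb, Zfp708, Zfp932, Zfp979 and any called member. The scripts were tested on simulated data. Alternatives were DESeq2 1.42.0, its size factors, no count filter, a replicate block and leaving out each library. The 2 libraries of each condition were not near-duplicates, and pairs across conditions were not compared. The marker lists covered 10 ES cell, 6 primitive endoderm, 8 2-cell-like and 6 fibroblast genes.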

Additional observations from a re-analysis of the deposited data

Results flagged for a closer look

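In 16 of the named members both IAA 4 h libraries lay below both control libraries in SYAT and above both in CGR8. The lines were counted in separate tables, so the difference between them was not tested, and Zik1 was selected on its SYAT values. No member was called at 4 h in either line, where the share of all genes called was 0% in SYAT and 0.00988% in CGR8. Over all genes, both IAA 4 h libraries lay below both control libraries for 24.1% in SYAT and above both for 21.6% in CGR8, and most of the named members were chosen for a small p in these experiments. The share of all genes that met both conditions was not counted, so the 16 cannot be set against it. The log2 fold changes after 4 h of IAA in SYAT and in CGR8 were -1.21 and 0.33 for Zik1, -1.69 and 1.09 for Zfp994, -2.02 and 0.71 for Zfp772, -1.53 and 0.91 for Zfp759, and -1.328 and 1.146 for Zfp947. Smaller in SYAT were Zfp709 (-0.93 and 0.37), Zfp940 (-0.91 and 0.27), Zfp738 (-0.79 and 0.58), Zfp995 (-0.72 and 0.56), Zfp764 (-0.63 and 0.19), Zfp933 (-0.51 and 0.52), Zfp932 (-0.39 and 0.55), Zfp953 (-0.39 and 0.85), Zfp770 (-0.38 and 0.64) and Zfp958 (-0.32 and 0.81). Zfp781 (-1.04 and 1.33) had at most 28.7 normalised exon counts in SYAT and 65.5 in CGR8. Beside these values stand those of CGR8 control replicate 1 and IAA replicate 2, which lay below and above the other CGR8 libraries in the members as a whole (-0.41 and 0.39), and their part was not tested.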

How the results depend on the processing

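Counts of called members moved with the test, the count filter, the replicate block and single libraries. Where no share of all genes stands beside them, they show this dependence only and say nothing about the members against other genes. With DESeq2 3, 19 and 9 members were called in exons at 4, 6 and 8 h of the time course, 7 in CGR8, 1 in EG1 and none (0) in LG1, and 2, 11 and 6 in time course introns. With no count filter the exon counts were 3, 30 and 9, 22 in CGR8 and 2 in LG1, and the intron counts were 1 at 6 h, 2 in EG1, 3 in wtSRCAP, 1 in cdSRCAP, and 1 and 2 for cdSRCAP against wtSRCAP in control and IAA cells. The members lower at an unadjusted p under 0.05 numbered 1 under DESeq2 and 1 with no filter for EG1, and 0 and 2 for LG1. With DESeq2 size factors 0 were called in EG1 introns. The LG1 median was -0.0685 with DESeq2 and -0.0692 with its size factors. The cause was not tested. Zik1 in EG1 changed sign to 0.0327 (DESeq2), 0.0278 (size factors), 0.0311 (no filter) and 0.00705 (block), and Zfp712 in EG1, at -0.878 with DESeq2 and -0.871 with no filter, and Zfp959 in LG1, at -0.491 with DESeq2, were no longer called. Leaving out 1 library gave these ranges. Members lower at an unadjusted p under 0.05 ran from 9 to 14 at 2 h, 12 to 15 at 4 h, 24 to 59 at 6 h, 0 to 4 for EG1, 0 to 5 for LG1, 9 to 45 in wtSRCAP and 8 to 11 in cdSRCAP, and members higher in CGR8 from 12 to 52. Called members ran from 0 to 46 at 6 h, 0 to 42 in CGR8, 0 to 4 for EG1 and 0 to 5 for LG1, and in introns from 0 to 19 at 6 h, 0 to 9 in CGR8, 1 to 4 for EG1 and 3 to 9 for LG1. Member medians ran from -0.436 to -0.152 at 4 h, -1.15 to -0.403 at 6 h, -0.117 to -0.0536 for LG1 and -1.12 to -0.24 in wtSRCAP. Log2 fold changes whose sign turned ran from -0.126 to 0.0678 (Zfp790, CGR8), -0.226 to 0.282 (Zik1, EG1), -0.22 to 0.17 (Zik1, LG1), -0.255 to 0.313 (Zfp790, cdSRCAP against wtSRCAP control), -0.644 to 0.489 (Zik1, the same after IAA) and -0.102 to 1.03 (Zik1, difference of responses). Zfp712 in EG1 ran from -1.1 to -0.666, Zfp972 in EG1 from -1.43 to -1.13 and Zfp959 in LG1 from -0.56 to -0.456, and each lost its call without at least 1 library.

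Replicate numbers are shared labels with no stated pairing. The correlation of deviations between same-numbered libraries ran from -0.0424 to 0.558 in the time course, was 0.0613 in CGR8, and ran from 0.336 to 0.555 in G1 and from 0.204 to 0.313 in the rescue lines (exons). With the replicate block, members called in exons were 15 at 6 h, 9 at 8 h, 26 in CGR8, 9 in EG1, 9 in LG1, 7 in wtSRCAP and 7 in cdSRCAP. In introns, the block gave 6 in EG1, 13 in LG1, 2 in wtSRCAP, 1 in cdSRCAP and 1 for cdSRCAP against wtSRCAP in control cells. At an unadjusted p under 0.05 the block gave 9 lower members for EG1, 13 for LG1, 41 in wtSRCAP and 25 in cdSRCAP. The shares of all genes under the block are not given here, so these counts do not set the members apart from other genes.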

Other observations

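Markers of other cell types were compared among the libraries that stood apart. In IAA 6 h replicate 2 of the time course the 6 primitive endoderm markers summed to 262 normalised exon counts, against 166.5 to 220 in the 9 other libraries. The 6 fibroblast markers summed to 797 against 444 to 675, the 10 ES cell markers to 70270 against 41100 to 56310, and the 8 markers of 2-cell-like cells to 6.27 against 5.04 to 29. In wtSRCAP IAA replicate 1 the sums were 64.5 (45.2 to 125 in the 7 others), 222 (94 to 226), 69470 (52760 to 94220) and 0 (2.38 to 14.2). In CGR8 control replicate 1 they were 516 (424 to 578), 706 (672 to 758), 254400 (212700 to 258500) and 108 (24.5 to 141).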
